A study of Rattus norvegicus with 4 samples.

Results

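Members of the tumour necrosis factor (TNF) superfamily and of the TNF receptor superfamily were examined in cultured smooth muscle cells of the rat aorta, which give the artery its contractile tone. The 9 genes were taken by symbol, and every probe set annotated to exactly 1 of them was used, which gave 13 probe sets of the 31099 on the array. The genes are the ligands Tnf and Tnfsf13 and the receptors Tnfrsf1a, Tnfrsf1b, Fas, Ltbr, Cd40, Tnfrsf9 and Tnfrsf12a.

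All cells were from Sprague-Dawley rats, were grown with serum for 3 days, kept without it for 3 days, and treated for 24 h. The groups were interleukin-1b (IL-1b, an inflammatory cytokine) at 2.5 ng/mL, its vehicle of 10 mM acetic acid with 0.1% albumin (BSA), PDGF-DD (a platelet-derived growth factor) at 30 ng/mL, and its vehicle of 0.01% BSA. Each group was 1 sample on 1 Affymetrix rat array, so each difference given here compares 1 array with 1 other; it could not be checked against replicates, and no p-value or standard deviation exists. The number of arrays limits the precision. The question asked of each pair is how the factor alters gene expression in these cells.

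TNF superfamily ligands are mostly trimeric proteins made at the cell surface and often shed from it. Their receptors include some with a cytoplasmic death domain, such as Tnfrsf1a and Fas, which can recruit caspases. Receptors that bind TRAF adaptor proteins and feed into NF-kappaB and MAP kinase signalling include Tnfrsf1b, Cd40, Ltbr, Tnfrsf9 and Tnfrsf12a. In the vessel wall this family is known for its part in inflammation, cell survival and tissue repair.

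Intensities are the authors' linear probe set values, brought to 1 trimmed mean across arrays. An intensity of 28.1, the 40th percentile of all probe sets, was used as a floor, below which values have no order here. All 27 bacterial control probe sets named for dap, lys, phe, thr or trp, which match no rat RNA, lay under it on all 4 arrays. Other control probe sets were not counted. For genes with several probe sets, the brightest on average over the 4 arrays, on the log2 scale, was taken to represent it. Intensities of different probe sets are not compared, since each has its own response.

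Promoters from RefSeq (build GRCr8), 250 bases before to 50 after the start site, were found for 8 of the 9 members and not for Cd40. They are shown for the 3 members that differed by at least 2-fold with a factor (Tnfrsf9, Tnfsf13 and Tnfrsf12a) and for Fas, the only member with a kappaB match. They run 5′ to 3′ on the gene's strand. Capitals mark matches, on either strand, to the kappaB consensus of NF-kappaB or to TGANTCA, the AP-1 element. The positions are chr5:166664244-166664543 (plus strand) for Tnfrsf9, chr10:54901766-54902065 (minus strand) for Tnfsf13, chr10:13213599-13213898 (minus strand) for Tnfrsf12a and chr1:241211905-241212204 (plus strand) for Fas.
Tnfrsf9: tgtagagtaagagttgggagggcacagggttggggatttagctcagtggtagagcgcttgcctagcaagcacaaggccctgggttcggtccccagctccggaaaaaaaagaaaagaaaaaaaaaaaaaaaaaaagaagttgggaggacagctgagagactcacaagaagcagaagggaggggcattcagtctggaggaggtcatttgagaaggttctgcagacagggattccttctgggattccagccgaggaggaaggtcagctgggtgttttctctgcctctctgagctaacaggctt
Tnfsf13: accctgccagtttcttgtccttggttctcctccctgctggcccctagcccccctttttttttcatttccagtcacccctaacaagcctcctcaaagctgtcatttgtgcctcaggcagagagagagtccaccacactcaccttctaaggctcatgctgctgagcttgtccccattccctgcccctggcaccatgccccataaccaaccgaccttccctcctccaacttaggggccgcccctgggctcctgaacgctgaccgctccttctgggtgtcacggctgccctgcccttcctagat
Tnfrsf12a: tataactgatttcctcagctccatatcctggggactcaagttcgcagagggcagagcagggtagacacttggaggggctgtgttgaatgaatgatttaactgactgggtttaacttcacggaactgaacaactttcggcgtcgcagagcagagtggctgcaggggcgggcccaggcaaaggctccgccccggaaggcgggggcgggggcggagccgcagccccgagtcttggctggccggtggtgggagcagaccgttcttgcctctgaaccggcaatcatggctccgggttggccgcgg
Fas: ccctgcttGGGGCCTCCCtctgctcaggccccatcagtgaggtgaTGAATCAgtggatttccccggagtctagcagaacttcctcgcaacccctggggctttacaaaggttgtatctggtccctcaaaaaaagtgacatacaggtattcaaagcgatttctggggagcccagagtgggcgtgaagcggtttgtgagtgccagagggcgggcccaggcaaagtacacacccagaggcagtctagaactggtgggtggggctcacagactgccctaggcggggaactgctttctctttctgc
The kappaB consensus was found in 1 of the 8 promoters, that of Fas, as GGGGCCTCCC at bases -242 to -233 from the start site. TGANTCA was found in 2 of 8, in Fas as TGAATCA at -205 to -199 and in Tnfrsf1b as TGAGTCA at -186 to -180. The 2 matches in Fas do not overlap. Among all 33469 promoters of the same length in the table, 7.51% held the kappaB consensus and 7.33% held TGANTCA. Neither motif's letters were found in the windows shown for Tnfrsf9, Tnfsf13 and Tnfrsf12a.

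The largest difference among the members with IL-1b was in Tnfrsf9, which encodes 4-1BB (CD137), a receptor best known as a costimulator on activated T cells. Its single probe set had an intensity of 699.7 on the IL-1b array, against 39.2 on the IL-1b vehicle array. PDGF-DD cells had 47.4, against 121 in PDGF-DD vehicle cells. The IL-1b array therefore stood above the other 3 arrays, and the IL-1b vehicle and PDGF-DD arrays were not far above the floor. With IL-1b Tnfrsf9 was 17.8-fold higher than with its vehicle, a log2 ratio of 4.16, and 99.5% of the 10679 genes measured in this comparison had a smaller ratio. Against the PDGF-DD vehicle array the IL-1b value was 5.76-fold higher, and against the PDGF-DD array 14.7-fold.

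Between the vehicle arrays, from cells given no factor, Tnfrsf9 was 3.10-fold higher with the PDGF-DD vehicle (log2 ratio 1.63). As a vehicle limit, the size of log2 ratio was taken that 99% of genes of like intensity stayed under between the vehicle arrays. It was 3.20 for Tnfrsf9, below the 4.16 seen with IL-1b against its own vehicle and above the 2.53 seen against the PDGF-DD vehicle array. With PDGF-DD, Tnfrsf9 was 2.56-fold lower than with its vehicle (log2 ratio -1.36), within that limit. Set against the IL-1b vehicle array instead, the PDGF-DD value was 1.21-fold higher, so its direction depends on which vehicle array is used.

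**Figure D1:**
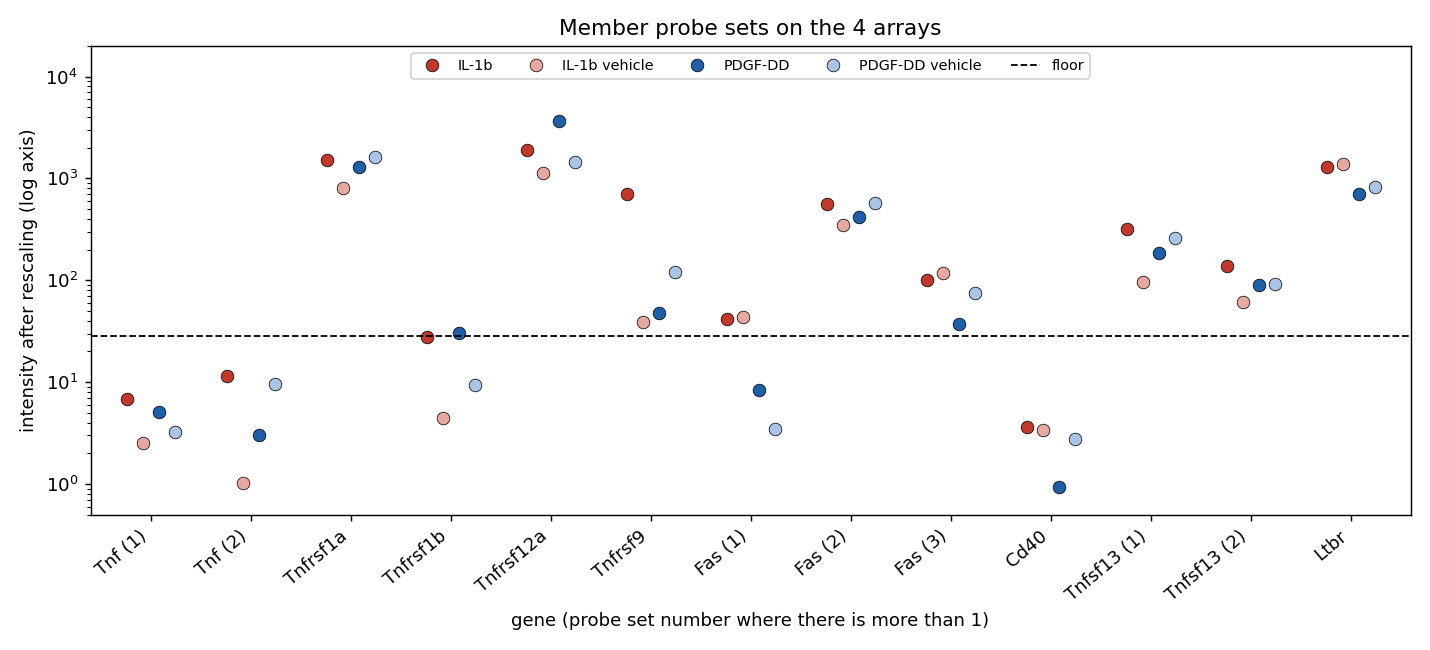
Intensity of each member probe set (log axis) on the IL-1b, IL-1b vehicle, PDGF-DD and PDGF-DD vehicle arrays, 1 point per array, with the floor of 28.1 as a dashed line; probe sets of a gene are numbered in the order of their names. Tnfrsf9 stands out at 699.7 on the IL-1b array, and the points of Tnf and Cd40 lie under the floor on all 4 arrays.

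Tnfrsf9 is chiefly studied in lymphocytes, so markers of such cells are given beside it. Of 7 T and B lymphocyte markers on the array, 6 were under the floor on all 4 arrays, among them Cd3e, Cd3g and Cd2. Cd4 was above the floor on the IL-1b array alone, at 38.3. Among 10 leukocyte and macrophage markers, Ptprc (CD45), Cd68, Itgam, Csf1r and Cd163 were under the floor on all 4 arrays. The summed intensity of those above it was 2717 with IL-1b, against 1168 with its vehicle, and 1117 with PDGF-DD, against 1220.5 with its vehicle. The IL-1b sum held Cd14 at 1333 and Lyz2 at 1305. Lyz2, Adgre1 (F4/80) at 41.7 and Aif1 at 38.2 exceeded the floor on the IL-1b array alone, and Itgb2 at 47.3 on the IL-1b vehicle array alone. The part of such cells in the Tnfrsf9 value was not tested. Of 5 endothelial markers 4 were under the floor on all arrays.

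Smooth muscle markers were present: 8 of 8 passed the floor on 1 or more arrays and 7 on all 4, Des being the exception. Their summed intensity was 8589 with IL-1b, against 28035 with its vehicle, and 4676 with PDGF-DD, against 20167 with its vehicle. Summed fibroblast markers, several of which smooth muscle cells also express, were 7814 with IL-1b, against 2214 with its vehicle. They were 616 with PDGF-DD, against 1357 with its vehicle. Most of each sum was Lum, at 6041 with IL-1b, 2067 with its vehicle, 372 with PDGF-DD and 1022 with its vehicle. Dpt went the other way from the sum with PDGF-DD, at 104 against 67.3 with its vehicle. The part of these shifts in the member values was not tested. In such bulk samples, fewer cells of a type and less RNA per cell cannot be told apart. As a measure of RNA integrity, 3′ over 5′ signal of beta-actin was 2.05 with IL-1b and 1.58 with its vehicle, and 1.37 with PDGF-DD and 1.26 with its vehicle.

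Tnfrsf12a encodes Fn14, the receptor of the ligand TWEAK, and is known as a growth factor-inducible gene. It was the only member at least 2-fold higher with PDGF-DD. The intensity was 3639 on the PDGF-DD array, against 1447 on the PDGF-DD vehicle array. IL-1b cells had 1913, against 1120.3 in IL-1b vehicle cells. Both factor arrays thus lay above both vehicle arrays, and PDGF-DD had the highest value. The difference with PDGF-DD was 2.52-fold (log2 ratio 1.33), larger than the ratio of 98.3% of the 10142 genes measured, and the difference with IL-1b was 1.71-fold (log2 ratio 0.77). The vehicle arrays were 1.29-fold apart, and the vehicle limit at this intensity was 2.28 on the log2 scale, above both ratios. Against the other vehicle arrays the PDGF-DD value was 3.25-fold and the IL-1b value 1.32-fold higher.

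Its ligand TWEAK is encoded by Tnfsf12, the only gene among the other ligands above the floor on all 4 arrays. Tnfsf12 had 375 with PDGF-DD, against 630.3 with its vehicle, and 743 with IL-1b, against 649 with its vehicle. Its log2 ratio was -0.75 for PDGF-DD and 0.20 for IL-1b, both less than 2-fold. PDGF-DD thus gave the highest intensity of the receptor and the lowest of the ligand among the 4 arrays.

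Tnfsf13 encodes APRIL, a secreted ligand known for the survival of B cells and plasma cells. The probe set that stood for the gene had 317 with IL-1b, against 96.9 with its vehicle, a 3.27-fold difference (log2 ratio 1.71). The other probe set had 138 against 61.4, a 2.25-fold difference (log2 ratio 1.17). Both probe sets thus had their highest value on the IL-1b array and their lowest on the IL-1b vehicle array. The PDGF-DD array had 185 and 89.4 by the 2 probe sets, against 258 and 92.5 on its vehicle array, with log2 ratios of -0.48 and -0.05.

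The Tnfsf13 difference with IL-1b was small against the other vehicle array. The PDGF-DD vehicle array was itself 2.67-fold above the IL-1b vehicle array (log2 ratio 1.41), and the IL-1b value was 1.23-fold higher than the PDGF-DD vehicle value. By the other probe set those folds were 1.51 and 1.49. The vehicle limit for the gene was 2.50 on the log2 scale, above the ratio of 1.71. Among its receptors, Tnfrsf17 (BCMA) was above the floor on the IL-1b vehicle array alone, at 33.8, and no probe set was annotated to Tnfrsf13b alone.

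Tnf, the founding ligand of the family and a product mainly of macrophages, was under the floor on all 4 arrays by both probe sets. They read 6.76 and 11.6 with IL-1b, against 2.52 and 1.02 with its vehicle. With PDGF-DD they read 5.04 and 3.06, against 3.23 and 9.64 with its vehicle. No fold is given, since all 8 values were below the floor, and a transcript level under that limit was not detectable with these probe sets.

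Tnfrsf1a, the death domain receptor of TNF found on most cells, was well above the floor on all 4 arrays. Its intensity was 1501 with IL-1b, against 798 with its vehicle, and 1284 with PDGF-DD, against 1625 with its vehicle. The IL-1b vehicle array was the low one, and the other 3 lay closer together. The log2 ratio was 0.91 with IL-1b (1.88-fold) and -0.34 with PDGF-DD (1.26-fold lower). The vehicle arrays were 2.04-fold apart (log2 ratio 1.03), more than either factor pair, and against the PDGF-DD vehicle array the IL-1b value was 1.08-fold lower.

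Tnfrsf1b, the TNF receptor without a death domain, read 27.6 with IL-1b, against 4.47 with its vehicle, and 30.7 with PDGF-DD, against 9.47 with its vehicle. Only the PDGF-DD value passed the floor, which makes it at least 1.09-fold higher than its vehicle. The IL-1b value stayed just under the floor, and values under it are not ordered.

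Fas, a death domain receptor that triggers apoptosis when bound by Fas ligand, had 3 probe sets that did not move together. The brightest had 562.5 with IL-1b, against 345 with its vehicle, and 421 with PDGF-DD, against 576 with its vehicle, log2 ratios of 0.70 and -0.45. A second probe set had 101 with IL-1b, against 118 with its vehicle, and 37.1 with PDGF-DD, against 74.7 with its vehicle, log2 ratios of -0.22 and -1.01. The remaining probe set was above the floor only in the IL-1b pair, at 42.0 with IL-1b and 43.6 with its vehicle. The sign of the IL-1b difference in Fas therefore depended on the probe set. Both probe sets measured in the PDGF-DD pair were lower with PDGF-DD than with its own vehicle. Against the IL-1b vehicle array, PDGF-DD was 1.22-fold higher by the brightest probe set and 3.19-fold lower by the second. Against the PDGF-DD vehicle array, IL-1b was 1.02-fold lower by the brightest and 1.35-fold higher by the second. Between the vehicle arrays the brightest probe set was 1.67-fold higher and the second 1.58-fold lower on the PDGF-DD vehicle array. Its ligand gene Faslg was above the floor on the IL-1b vehicle array alone, at 28.9.

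Ltbr encodes the lymphotoxin beta receptor, which activates the non-canonical NF-kappaB pathway. Ltbr differed little between either factor and its own vehicle. It had 1299 with IL-1b, against 1381 with its vehicle, and 711 with PDGF-DD, against 831 with its vehicle. The log2 ratios were -0.09 and -0.22. Against the other vehicle array the IL-1b value was 1.56-fold higher and the PDGF-DD value 1.94-fold lower. Both arrays of the IL-1b pair lay above both arrays of the PDGF-DD pair, and the vehicle arrays were 1.66-fold apart (lower on the PDGF-DD vehicle array). Its ligand genes Lta and Ltb were under the floor on all 4 arrays. Ltbr and Tnfrsf1a lie close together on chromosome 4 in the GRCr8 annotation, with 1 protein-coding gene between them, Scnn1a.

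Cd40, a receptor of antigen-presenting cells that binds CD40 ligand, was under the floor on all 4 arrays. It read 3.62 with IL-1b, against 3.42 with its vehicle, and 0.936 with PDGF-DD, against 2.79 with its vehicle. Its ligand gene Cd40lg was under the floor on all 4 arrays too, as was Tnfsf9, the ligand gene of Tnfrsf9.

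Counted by gene, 7 of the 9 members passed the floor on 1 or more arrays and 6 on all 4. With IL-1b, 2 of the 6 members measured in that pair were at least 2-fold higher (Tnfrsf9 and Tnfsf13) and 0 lower, where 11.6% of all genes measured were at least 2-fold apart, 6.15% higher and 5.42% lower. With PDGF-DD, 1 of 7 was at least 2-fold higher (Tnfrsf12a) and 1 lower (Tnfrsf9). Among all genes 8.91% were at least 2-fold apart, 4.24% higher and 4.67% lower. The 7 include Tnfrsf1b, whose ratio of at least 1.09-fold is a lower bound and cannot show whether it passed 2-fold. This bound also enters the member medians for PDGF-DD. Between the vehicle arrays, 3 of 6 were higher on the PDGF-DD vehicle array (Tnfrsf9, Tnfsf13 and Tnfrsf1a) and 0 lower, where 10.5% of all genes were at least 2-fold apart, 5.79% higher and 4.67% lower.

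Over the measured members the median log2 ratio was 0.84 with IL-1b, beside 0.02 over all genes, and -0.34 with PDGF-DD, beside 0.01 over all genes. Between the vehicle arrays it was 0.88 on the same scale, beside -0.05 over all genes. The IL-1b comparison and the one between the vehicles share the IL-1b vehicle array. For IL-1b over the PDGF-DD vehicle the member median was 0.35, with 1 of 6 at least 2-fold higher (Tnfrsf9), where 10.4% of all genes were 2-fold apart and 5.44% higher. Against the IL-1b vehicle array it was 0.29 for PDGF-DD, with 1 of 7 higher (Tnfrsf12a), where 20% of all genes were 2-fold apart and 9.64% higher. These comparisons share vehicle arrays with those above and are not independent of them.

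**Figure D2:**
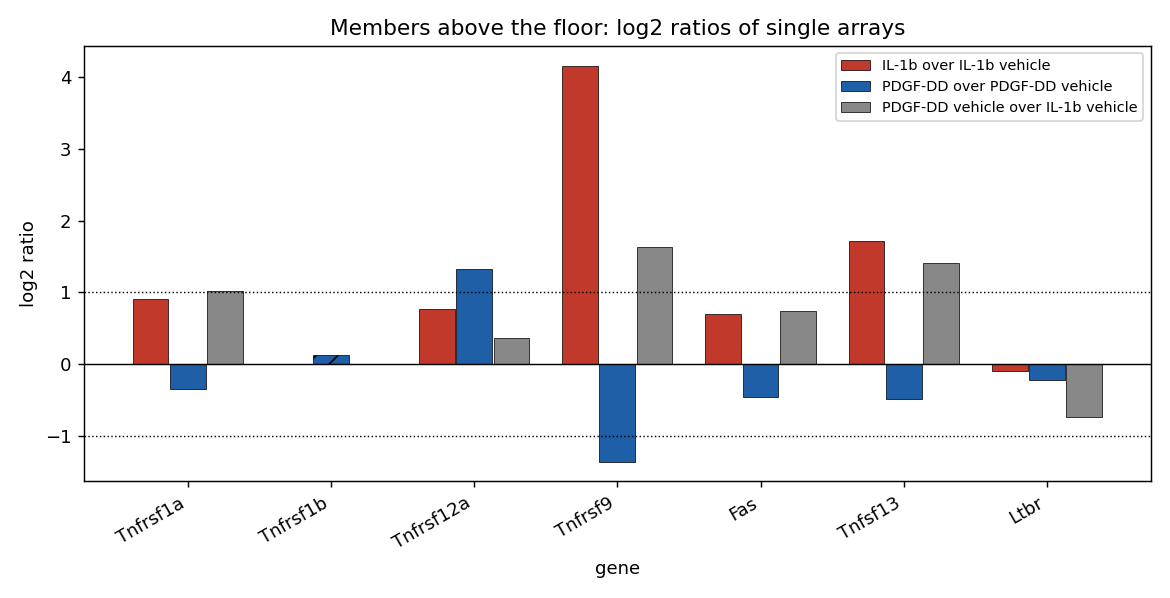
Log2 ratio (y axis) of each member above the floor on at least 1 array, for IL-1b over its vehicle, PDGF-DD over its vehicle and the PDGF-DD vehicle over the IL-1b vehicle; the hatched bar is a lower bound, an absent bar means that both arrays were at the floor, and dotted lines mark 2-fold. Tnfrsf9 reaches 4.16 with IL-1b and -1.36 with PDGF-DD, and the grey bars of Tnfrsf1a, Tnfsf13 and Fas are close to their IL-1b bars.

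**Figure D3:**
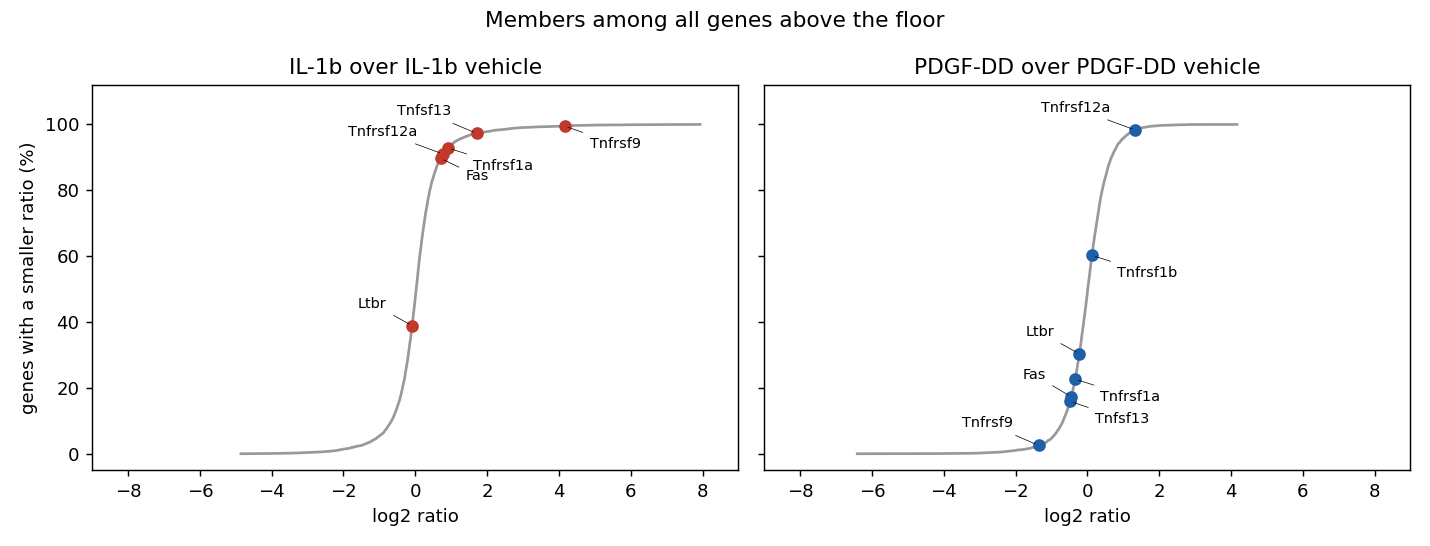
Share of all measured genes with a smaller log2 ratio (y axis, %) against the log2 ratio (x axis) for IL-1b and for PDGF-DD over their vehicles; the grey line is all genes and the points are members. With IL-1b 5 of 6 members lie between 89.7% (Fas) and 99.5% (Tnfrsf9), and with PDGF-DD Tnfrsf12a lies at 98.3% and Tnfrsf9 near the bottom. The second Fas probe set, not drawn, lay at 27.8% with IL-1b. Against the PDGF-DD vehicle array, not drawn, IL-1b gave 33.6% for Tnfrsf1a, 39.6% for Fas, 69.0% for Tnfsf13 and 76.1% for Tnfrsf12a. Ltbr then lay at 87.5% and Tnfrsf9 at 99.4%.

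Of all 14218 genes on the array, 10885 exceeded the floor on 1 or more arrays, as did 3 of the 10 other ligand genes and 6 of the 12 other receptor genes on it. Of 16 other ligand genes 10 were on the array, and 7 of these were under the floor on all 4 arrays. With IL-1b and with PDGF-DD, 0 of the 3 and 0 of the 1 measured were at least 2-fold apart. In the IL-1b pair Faslg (28.9 with the vehicle) and Eda (30.1 with IL-1b) passed the floor on 1 array only. Their ratios, at least 1.03-fold lower and at least 1.07-fold higher, are lower bounds and cannot show whether they passed 2-fold. Of 19 other receptor genes 12 were on the array, and 6 were under the floor on all 4 arrays. With IL-1b 1 of 6 was at least 2-fold higher and 1 lower, and with PDGF-DD 1 of 5 was higher and 0 lower. In the IL-1b pair the ratios of Relt and Tnfrsf17 are lower bounds. Among all genes 6.15% were higher and 5.42% lower by this rule with IL-1b, and 4.24% and 4.67% with PDGF-DD.

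Tnfrsf11b (osteoprotegerin, a soluble decoy receptor for RANK ligand) had 3412 with IL-1b, against 1571 with its vehicle, a 2.17-fold difference. With PDGF-DD it had 1356, against 1298 with its vehicle. The IL-1b value was also 2.63-fold above the PDGF-DD vehicle array, so Tnfrsf11b was high on that array alone. Its own ligand gene Tnfsf11 (RANK ligand) was under the floor on all 4 arrays, as was the gene of the receptor RANK, Tnfrsf11a. Tnfrsf25, a death domain receptor, had 33.8 with IL-1b, against 79.7 with its vehicle, and was 1.19-fold lower than the PDGF-DD vehicle array. Tnfrsf26, a receptor gene described in mouse, had 773 with PDGF-DD, against 334 with its vehicle, a 2.32-fold difference, and 326 with IL-1b, against 194 with its vehicle. Relt, another receptor, had 106 with PDGF-DD, against 66.3 with its vehicle, and 54.9 with IL-1b, against a value under the floor with its vehicle (at least 1.95-fold). Against the PDGF-DD vehicle array the IL-1b value of Relt was 1.21-fold lower, and that of Tnfrsf26 was 1.02-fold lower.

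Among genes of death signalling, 8 of 11 were on the array and all 8 were above the floor on all 4 arrays. With IL-1b 1 of 8 was at least 2-fold higher, Bid, and with PDGF-DD 1 of 8, Ripk3. Among all genes 11.6% were 2-fold apart with IL-1b and 8.91% with PDGF-DD. The list median of the log2 ratio was 0.40 with IL-1b, beside 0.02 over all genes, and 0.36 with PDGF-DD, beside 0.01. Bid, which carries the signal of caspase-8 to mitochondria, had 1032 with IL-1b, against 204 with its vehicle (5.06-fold), and 369 against 45.4 by its other probe set. The IL-1b value of Bid was 2.15-fold above the PDGF-DD vehicle array. Ripk3, a kinase of necroptosis, had 1318 with PDGF-DD, against 495 with its vehicle (2.66-fold), and 395 with IL-1b, against 219 with its vehicle. Set against the PDGF-DD vehicle array, the IL-1b value of Ripk3 was 1.25-fold lower. Fadd, the adaptor of death receptors, had 202 with PDGF-DD, against 119 with its vehicle, and Casp8 had 439 against 280.3, both less than 2-fold. By its other probe set Casp8 had 319 with PDGF-DD, against 282 with its vehicle.

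Of 26 genes of TRAF and ubiquitin signalling 23 were on the array, 22 above the floor on all 4 arrays. With IL-1b 2 of 23 passed 2-fold, both higher, where 11.6% of all genes passed it, and the list median was 0.03, beside 0.02 over all genes. With PDGF-DD 0 of 22 were higher and 2 lower, where 8.91% of all genes passed 2-fold, and the list median was -0.23, beside 0.01. Birc3 (cIAP2, a ubiquitin ligase that binds TRAF2) had 740.1 with IL-1b, against 71.2 with its vehicle, and 104 with PDGF-DD, against 312 with its vehicle. It was thus 10.4-fold higher with IL-1b and 3.00-fold lower with PDGF-DD, and 4.39-fold apart between the vehicle arrays, with the PDGF-DD vehicle the higher. Against the other vehicle array Birc3 was 2.37-fold higher with IL-1b and, with the sign turned, 1.46-fold higher with PDGF-DD. Birc3 and Tnfrsf9 had the same order over the 4 arrays by these values. Birc2 (cIAP1) had 859 with IL-1b, against 480.03 with its vehicle, and 630.01 with PDGF-DD, against 1199 with its vehicle; both signs turned against the other vehicle array, to log2 ratios of -0.48 and 0.39. Traf1, which binds Tnfrsf9 and Tnfrsf1b, was above the floor on the IL-1b array alone, at 65.5 (at least 2.33-fold higher), by 1 of its 2 probe sets. Tnip1, a partner of the ubiquitin-editing enzyme A20, had 507 with PDGF-DD, against 1235 with its vehicle (2.44-fold lower), and 1511 with IL-1b, against 775 with its vehicle. Against the other vehicle array Tnip1 was 1.53-fold lower with PDGF-DD and 1.22-fold higher with IL-1b.

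All 9 genes of ligand shedding and of Tnf mRNA decay were above the floor on all 4 arrays. With IL-1b 2 were at least 2-fold higher and 1 lower, where 11.6% of all genes were 2-fold apart, and the list median was 0.59, beside 0.02 over all genes. With PDGF-DD 0 of 9 were 2-fold apart, where 8.91% of all genes were, and the list median was -0.09, beside 0.01. Zc3h12a, an RNase that degrades inflammatory transcripts including Tnf, had 1876 with IL-1b, against 95.5 with its vehicle, and 177 with PDGF-DD, against 281 with its vehicle, but 1.86-fold above the IL-1b vehicle array. Timp3, an inhibitor of the TNF-shedding protease Adam17, had 934 with IL-1b, against 3317 with its vehicle, and its 4 probe sets gave log2 ratios from -2.67 to -1.71. By the probe set that stood for the gene, the IL-1b value was 1.88-fold lower than the PDGF-DD vehicle array, and the vehicle arrays were 1.89-fold apart. Litaf, named as a factor induced by lipopolysaccharide that acts on TNF expression, had 2828 with IL-1b, against 1348 with its vehicle, and was 1.04-fold above the PDGF-DD vehicle array. Adam10, a shedding protease, had 493 with PDGF-DD, against 287 with its vehicle, and 184 with IL-1b, against 122 with its vehicle. By its other probe set the log2 ratio with IL-1b was at least 1.08, since the IL-1b vehicle value lay under the floor. The IL-1b value of Adam10 was 1.56-fold lower than that of the PDGF-DD vehicle array.

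**Figure D4:**
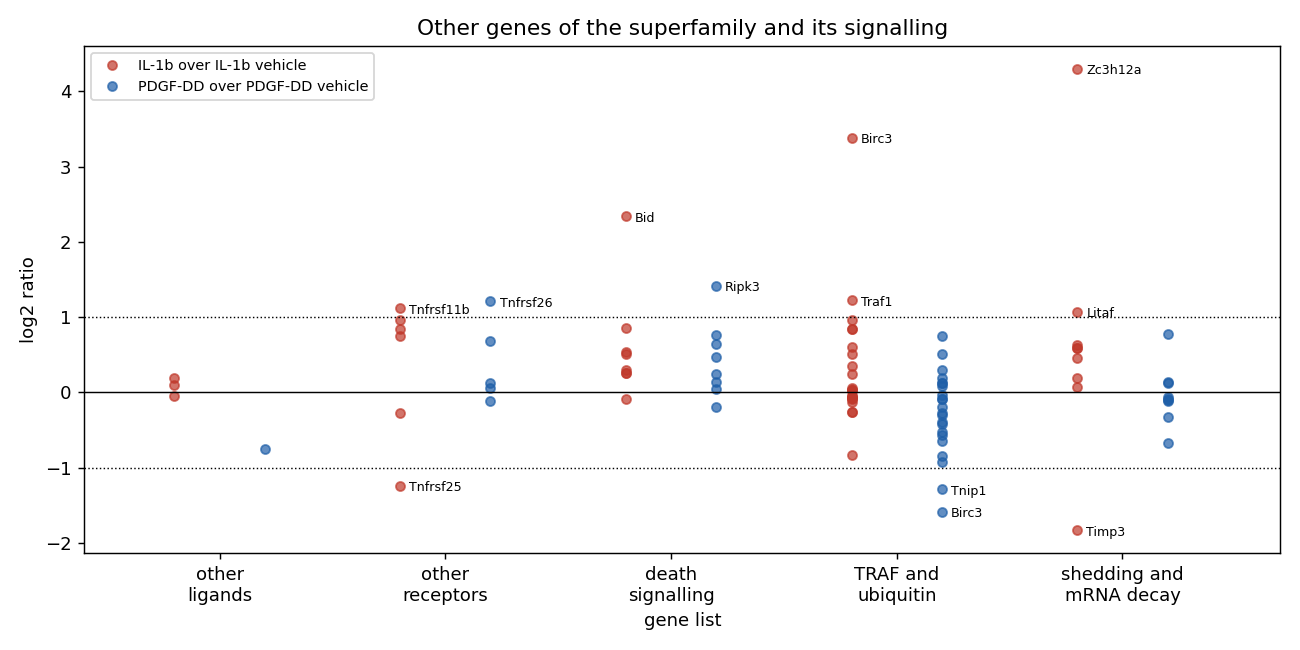
Log2 ratios (y axis) of other genes of the superfamily and its signalling in 5 lists, for IL-1b and PDGF-DD over their vehicles, 1 point per gene that passed the floor in that pair; genes past 2-fold (dotted lines) are named. Zc3h12a and Birc3 lie highest with IL-1b, and Birc3 lies lowest with PDGF-DD.

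For each of the 6 members above the floor on all 4 arrays, the genes with the most similar pattern were taken as those at the smallest Euclidean distance between the 4 centred log2 intensities, among 9164 other genes. For Tnfrsf9 they were Ntn1, Rftn1 and Zc3h12a, at distances of 0.33, 0.48 and 0.54. Ntn1 had 1798 with IL-1b, against 137 with its vehicle, and 152 with PDGF-DD, against 373 with its vehicle. For Tnfrsf12a they were Dusp7, Ereg and Plin2, at 0.12, 0.14 and 0.15. Dusp7, a MAP kinase phosphatase, had 790.01 with PDGF-DD, against 344 with its vehicle, and 456 with IL-1b, against 269 with its vehicle.

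The nearest to Tnfsf13 were Vmp1, Jak2 and an unnamed gene model, at 0.15, 0.19 and 0.23. Those nearest to Tnfrsf1a were Hsph1, Tagln2 and Tfpi, at 0.032, 0.12 and 0.12. Cdc42ep5, Pcca and Nudt22 lay nearest to Fas, at 0.10, 0.12 and 0.12. Parp6, Btbd2 and Trpv6 lay nearest to Ltbr, at 0.041, 0.042 and 0.048. The distances were larger for Tnfrsf9 than for the other 5 members. The log2 values were not scaled, so such distances also grow with the size of the differences between arrays, which was largest for Tnfrsf9. Over 4 single arrays many genes share a pattern, so these distances are a description of the arrays.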

How the data were processed

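RNA of 4 samples, 1 per group, was measured on Affymetrix rat arrays from biotin-labelled cRNA, per the labels. The authors deposited linear intensities, for which the submitters' processing notes name MAS5, with no version or scaling target; all 4 deposited columns had a median of 53.3. Detection calls were not used here.

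Groups were taken from sample titles. Arrays were brought to 1 mean, with 2% of probe sets trimmed at either end (factors 1.01 for IL-1b, 1.03 for its vehicle, 0.951 for PDGF-DD, 1.01 for its vehicle). Values under the 40th percentile were set to that floor before log2, and 58.3% to 61.5% of probe sets per array passed it. A platform annotation of 2016 gave 20832 probe sets 1 symbol (436 had several, 9831 were not listed) and 14218 genes; all 9 members matched RefSeq by gene identifier. A gene was measured in a comparison if either array passed the floor, and a ratio against the floor is a lower bound. No test was possible with 1 array per group, so at least 2-fold was the rule of size. Vehicle limits used 20 intensity bins.

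Genes named were the members, up to 4 per list with the largest absolute ratio, and 3 nearest genes per member; further ligands, receptors and markers were named with their values known. Members, lists and alternatives were chosen with earlier results of these data known. The steps were tested on simulated data, with Python 3.11.15, numpy 2.4.6 and pandas 2.3.3.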

Additional observations from a re-analysis of the deposited data

Results flagged for a closer look

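With 1 array per group, no sample can be set against others of its group. Among the members, 4 genes had log2 ratios of opposite sign with the factors, each against its own vehicle, and this difference between the factors was not tested. They were Tnfrsf9 (4.16 with IL-1b and -1.36 with PDGF-DD), Tnfsf13 (1.71 and -0.48), Tnfrsf1a (0.91 and -0.34) and Fas (0.70 and -0.45). The Fas values are those of its brightest probe set; its other probe set above the floor on all 4 arrays gave -0.22 with IL-1b and -1.01 with PDGF-DD, and -0.66 between the vehicles. Tnfrsf9 alone passed 2-fold in both directions. By these probe sets all 4 also read higher with the PDGF-DD vehicle than with that of IL-1b. The log2 ratios were 1.63, 1.41, 1.03 and 0.74 in the same order. Set against the IL-1b vehicle array, PDGF-DD gave 0.27, 0.93, 0.69 and 0.29, the same sign as IL-1b in all 4. Set against the PDGF-DD vehicle array, IL-1b gave 2.53, 0.29, -0.11 and -0.03, and only Tnfrsf9 and Tnfsf13 kept opposite signs. The part of the vehicle difference in the opposite signs was not tested.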

How the results depend on the processing

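Each result was recomputed with the values as deposited, with quantile normalization, with the floor at the 30th or 50th percentile, without a floor as log2(intensity + 16), with the median over a gene's probe sets, and with the other vehicle array as the reference. The count of members at least 2-fold apart and the member median stayed close to the values given (counts within 1.5 times, medians within 0.32, the median absolute log2 ratio between the vehicle arrays) under all of these except the change of vehicle array. With the other vehicle array, 1 member was at least 2-fold apart for IL-1b (median log2 ratio 0.35, against 0.84) and 1 for PDGF-DD (median 0.29, against -0.34). The PDGF-DD ratio of Tnfrsf9 then turned to 0.27, against -1.36. The PDGF-DD ratios of Tnfrsf1a (0.69), Fas (0.29) and Tnfsf13 (0.93) changed sign too. With IL-1b, the ratios of Tnfrsf1a (-0.11), Fas (-0.03) and Ltbr (0.64) changed sign. The other member ratios kept their sign. The count over all genes for PDGF-DD was 2076, against 904. The cause was not tested. The IL-1b ratio of Tnfrsf9 lay between 2.53 (other vehicle array) and 4.22 (quantile normalization). Without a floor, 3 members passed 2-fold with IL-1b, Tnfrsf1b among them. With the median over probe sets, the ratios of Fas were -0.22 for IL-1b and -1.01 for PDGF-DD. Of 126 single-gene values recomputed, 105 moved by less than 0.32. Among those recomputed with the other vehicle array, only the PDGF-DD ratio of Tnfrsf1b, a lower bound, did so. Signal near background limits Tnf, Cd40 and Tnfrsf1b. No paired analysis was possible because each group holds 1 array.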
